A study of Mus musculus with 56 samples.

Results

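The comparison described here set daytime-restricted feeding (DRF) against nighttime-restricted feeding (NRF) at zeitgeber time 4 (ZT4, hours after lights on) in mouse visceral adipose tissue (VAT). Its members were chosen by label, as the 4 DRF and the 4 NRF libraries collected at ZT4, which makes 8 of the 56 VAT libraries of the series. All groups were C57BL/6J females of 9 weeks on normal chow under equal hours of light and dark, and had been on their regimen for 7 days. DRF gave food in the light phase and NRF in the dark phase, so that at ZT4 the DRF mice were in their feeding window and the NRF mice, the control group, were in their fast. The same pair of regimens at ZT8 (same windows) and at ZT16 (windows exchanged), 4 libraries per group, served as the times of comparison. The labels number the replicates, and the study describes 4 mice per time point. Poly(A) RNA of whole tissue was sequenced, so fewer cells of a type and less RNA per cell cannot be told apart in any result below.

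White adipose tissue stores triglyceride after meals and releases fatty acids and glycerol in the fast. Insulin and nutrients raise the genes of lipid synthesis, largely through the sterol regulatory element binding proteins (SREBPs), while fasting raises genes of lipolysis, glyceroneogenesis and FOXO targets. Adipocytes also hold a circadian clock, in which CLOCK and ARNTL (BMAL1) drive their own repressors, the Per, Cry and Nr1d genes, and output factors of the PAR bZIP family such as DBP. Sequence in the promoters of both sets of genes is shown first.

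Promoters were read from RefSeq (GRCm38.p6) as the 250 bases before each annotated start, and the letters CCAAT, the box bound by NF-Y, a partner of SREBPs, were searched on both strands. They were present upstream of 15 of the 16 cholesterol biosynthesis genes with an entry, against 37.5% of the 27025 genes in the table. List genes were limited to those tested in this tissue, while the 27025 are all genes with an entry, tested or not. The same holds for each motif below, so the 2 shares are of unlike sets. The other lists searched lay between, at 11 of 17 fatty acid synthesis, 8 of 14 core clock, 3 of 6 PAR bZIP and output and 7 of 16 heat shock genes. The sterol element TCACNCCAC was found for Hmgcs1 alone among these 16 genes, against 2 of 17 fatty acid synthesis genes, 1 of 16 heat shock genes and 1.22% of all genes. The following windows are from 4 of these genes, all of which were higher under DRF, with CCAAT or its complement ATTGG, and the sterol element of Hmgcs1, in capitals. They run 5′ to 3′ along the gene, on the minus strand at chr8:122443425-122443502 for Mvd, chr5:4104702-4104746 for Cyp51 and chr19:6067873-6067917 for Tm7sf2, and on the plus strand at chr13:119690101-119690330 for Hmgcs1.

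Mvd: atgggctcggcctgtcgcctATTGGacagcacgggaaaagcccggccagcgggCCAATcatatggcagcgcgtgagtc
Cyp51: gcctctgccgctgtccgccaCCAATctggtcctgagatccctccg
Tm7sf2: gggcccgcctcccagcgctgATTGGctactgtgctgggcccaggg
Hmgcs1: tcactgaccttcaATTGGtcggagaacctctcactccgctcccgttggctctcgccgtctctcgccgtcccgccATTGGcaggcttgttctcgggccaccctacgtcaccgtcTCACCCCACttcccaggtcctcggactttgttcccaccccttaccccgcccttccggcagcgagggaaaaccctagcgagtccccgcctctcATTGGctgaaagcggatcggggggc

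For clock genes the E-box CACGTG, the letters that CLOCK and ARNTL bind, was searched in the same way. It was found upstream of 4 of 14 core clock genes (Bhlhe41, Ciart, Cry1 and Per1) and of 1 of 6 PAR bZIP and output genes (Tef), against 6.86% of all genes. It was also found for 3 of 16 cholesterol biosynthesis, 3 of 17 fatty acid synthesis and 2 of 16 heat shock genes, and is thus not particular to the clock lists. The windows shown, with the E-box in capitals, lie on the minus strand at chr6:145865548-145865593 for Bhlhe41 and chr10:85185089-85185134 for Cry1 and on the plus strand at chr15:81802526-81802571 for Tef. A match is only a stretch of letters, and binding was not measured.

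Bhlhe41: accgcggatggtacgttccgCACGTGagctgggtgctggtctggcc
Cry1: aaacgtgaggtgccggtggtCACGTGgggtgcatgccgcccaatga
Tef: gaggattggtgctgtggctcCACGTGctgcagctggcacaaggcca

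The 8 libraries held between 34610361 and 40009627 recovered reads on genes, and 21913 to 23374 genes had at least 1 read. Levels are given as CPM (read counts scaled by library size) recovered from the deposited values, and differences as DRF minus NRF on the log2(CPM + 1) scale. The added count of 1 makes the fold of weakly expressed genes appear smaller than it is. Correlations within a group ran from 0.991 to 0.995 under DRF and from 0.983 to 0.990 under NRF. The first principal component took 61.6% of the variance and separated the regimens, and the second, 10.7%, spread the NRF libraries from -20.8 (replicate 3) to 24.4 (replicate 2), against -5.96 to 0.45 under DRF. The standard deviation between replicates was larger under NRF for 10759 of the 15740 genes tested (68.4%), with a median of 0.16 against 0.12. All 10 adipocyte markers were present, summing to between 31732 and 35997 CPM under DRF and between 30479 and 45430 CPM under NRF. Markers of uterine epithelium, ovary and mammary epithelium summed to at most 33.5, 14.3 and 128 CPM, and those of pancreas to at most 24.8 CPM. Liver markers summed to 2239 to 3310 CPM under DRF and 1166 to 5889 CPM under NRF, most of it from the cytochrome gene Cyp2e1, which adipose tissue also expresses, while albumin (Alb) measured 30.6, 31.1, 33.6 and 43.7 CPM under DRF and 39.1, 21.4, 26.2 and 24.4 CPM under NRF. Cyp2e1 measured 2380, 2220, 2200 and 3260 CPM under DRF and 1740, 1140, 5860 and 1720 CPM under NRF. Of the 5 liver markers tested, 2 were higher under DRF (from 1 to 3 when single libraries were left out), against 19.9% of all genes. Skeletal muscle markers summed to 7.25 to 113 CPM, and the myosin Myh4 reached 15.7 and 7.34 CPM in DRF replicates 1 and 2 and at most 0.149 CPM in the others. No member of that list passed the test, though 2 of 9 passed as higher under DRF without DRF replicate 3 or 4. Marker sums of adipose progenitors and mesothelium were lower, and those of red cells and neutrophils mostly higher, under DRF, with values given with those lists.

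Of 15740 genes tested, 3130 were higher and 2950 lower under DRF in limma with Benjamini-Hochberg adjustment (adjusted p under 0.05), so that 38.6% of genes were called, 19.9% as higher and 18.7% as lower. Changes of at least 2-fold were uneven, with 362 genes higher and 130 lower. The groups did not overlap for 36.6% of genes, and the median difference over all genes was -0.02. When CPM were taken per total reads instead of the deposited library scale, the median moved by -0.18 and the split became 1666 higher and 5272 lower. Differences below are therefore relative to the deposited scaling, and small ones depend on it.

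Among genes with an official symbol, a mean level of at least 2 and no overlap, the largest rise was that of Ppp1r3b, which encodes a subunit that brings protein phosphatase 1 to glycogen. Ppp1r3b (ENSMUSG00000046794, chr8:35375739-35388139) measured 942, 678, 974 and 794 CPM under DRF and 57.3, 94.1, 10.7 and 19.4 CPM under NRF. Every DRF library stood above 600 CPM and every NRF library below 100, a difference of 4.63 ± 0.53 (SE, adjusted p = 0.000241) in limma. Angptl8, an insulin-induced inhibitor of lipoprotein lipase, measured 440, 364, 461 and 480 CPM under DRF and 63.6, 88.4, 18.4 and 29.3 CPM under NRF, a difference of 3.34 ± 0.39 (SE, adjusted p = 0.000264) in limma. Within NRF, both genes were lowest in replicate 3 and highest in replicate 2, and the groups lay far apart all the same.

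Smtnl2, a smoothelin-like protein, measured 69.8, 81.5, 77.8 and 83.9 CPM under DRF and 10.3, 5.77, 3.27 and 4.33 CPM under NRF, a difference of 3.61 ± 0.24 (SE, adjusted p = 1.69e-05). Podnl1, a small leucine-rich repeat proteoglycan, measured 20.1, 18.5, 26 and 24.3 CPM under DRF and 2.06, 0.997, 0.669 and 1.04 CPM under NRF, a difference of 3.43 ± 0.18 (SE, adjusted p = 5.22e-06). Both genes were tight within DRF and their groups were separated about as cleanly as those of Ppp1r3b. Hephl1, a copper-dependent ferroxidase, differed by 3.97 ± 0.56 (SE, adjusted p = 0.000695), and Ncan, the proteoglycan neurocan, by 3.48 ± 0.27 (SE, adjusted p = 3.41e-05). Elovl3, an elongase of very long chain fatty acids, rose by 2.82 ± 0.46 (SE, adjusted p = 0.00139), with 20.1, 8.22, 30 and 11.1 CPM under DRF and 0.82, 4.9, 0.595 and 0.704 CPM under NRF. The NRF value of replicate 2 stood apart from the other three there but remained below the lowest DRF value.

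The falls were smaller. Plppr3, a phospholipid phosphatase-related protein, measured 5.89, 5.69, 5.24 and 3.7 CPM under DRF and 20.7, 19.1, 59.4 and 39.7 CPM under NRF, and fell by 2.41 ± 0.31 (SE, adjusted p = 0.000421). B3galt2, a galactosyltransferase, measured 96.3, 94.3, 86.9 and 102 CPM under DRF and 386, 514, 491 and 402 CPM under NRF, a difference of -2.22 ± 0.11 (SE, adjusted p = 4.46e-06). These B3galt2 levels were close together within each regimen. Txnip, which restrains glucose uptake and thioredoxin, measured 386, 342, 309 and 326 CPM under DRF and 940, 1010, 1490 and 1110 CPM under NRF, a difference of -1.72 ± 0.15 (SE, adjusted p = 6.58e-05). The NRF libraries were all above the DRF libraries, with replicate 3 highest.

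Pck1, the enzyme of glyceroneogenesis, measured 371, 567, 421 and 509 CPM under DRF and 1360, 831, 3120 and 1920 CPM under NRF, a difference of -1.81 ± 0.33 (SE, adjusted p = 0.00257). The lowest NRF library (replicate 2) was still above the highest DRF library. Spon1, the matrix protein spondin, differed by -2.29 (adjusted p = 0.0019), Sncg, gamma-synuclein, by -2.14 (adjusted p = 0.000846), Thbs1, thrombospondin, by -1.96 (adjusted p = 0.01), and Net1, an exchange factor for RhoA, by -1.89 (adjusted p = 0.00165). Thbs1 and Net1 were narrow under DRF (73.6, 73.2, 74.4 and 76.7 CPM for Net1) and broad under NRF (172, 197, 626 and 287 CPM). Ifi27l2a, an interferon-induced gene, measured 171, 163, 199 and 162 CPM under DRF and 517, 1090, 800 and 430 CPM under NRF, a difference of -1.93 ± 0.25 (SE, adjusted p = 0.000406). Actg2, an actin of smooth muscle, differed by -1.84 (adjusted p = 0.00581), and its highest DRF and lowest NRF libraries lay near each other, at 19.5 and 25.2 CPM.

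**Figure D1:**
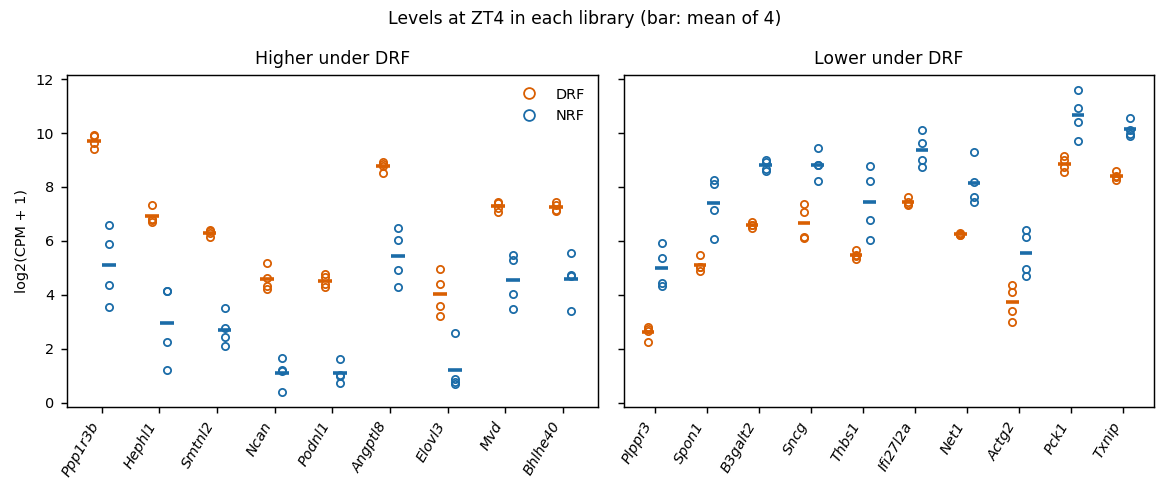
Levels at ZT4 of genes with the largest rises (left) and falls (right) under DRF, on the log2(CPM + 1) scale, with 1 circle per library (DRF orange, NRF blue) and a bar at the mean of 4. Genes were chosen among those whose groups do not overlap, so their separation follows from the choice. NRF circles are usually more spread than DRF circles.

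Clock genes differed in both directions. Of the 19 core clock genes tested, 10 were higher and 4 lower under DRF, against 19.9% and 18.7% of all genes, and 5 did not pass. The share of lower genes was near that of all genes. The median difference was 0.35 against -0.02 over all genes. Per total reads, 7 of the 19 were higher and 6 lower, against 1666 and 5272 over all genes, with a list median of 0.17. Among the repressors, Per2 measured 28.5, 17.7, 23.7 and 19.6 CPM under DRF and 5.19, 1.42, 4.14 and 2.96 CPM under NRF, a difference of 2.46 ± 0.26 (SE, adjusted p = 0.000167). Cry1 measured 31.5, 18.4, 31.7 and 34.3 CPM under DRF and 7.13, 9.44, 8.08 and 5.71 CPM under NRF, a difference of 1.78 ± 0.19 (SE, adjusted p = 0.000183). Neither gene overlapped between the regimens, although the DRF replicate 2 library had only 18.4 CPM of Cry1, apart from the other three.

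The repressors Bhlhe40 and Bhlhe41 (DEC1 and DEC2) rose as well. Bhlhe40 measured 174, 140, 161 and 137 CPM under DRF and 25, 46.3, 9.49 and 25.6 CPM under NRF, a difference of 2.66 ± 0.35 (SE, adjusted p = 0.000455), and Bhlhe41 measured 21.7, 24, 23.1 and 22.6 CPM under DRF and 6.43, 6.58, 4.12 and 4.92 CPM under NRF, a difference of 1.89 ± 0.13 (SE, adjusted p = 1.72e-05). Nr1d1 (REV-ERB alpha), which represses Arntl, went the other way, with 36.7, 68.4, 46.2 and 37.4 CPM under DRF and 169, 142, 126 and 115 CPM under NRF and a difference of -1.56 ± 0.19 (SE, adjusted p = 0.000287). Its paralogue Nr1d2 fell by 0.84 (adjusted p = 0.00117) and Npas2, a partner of ARNTL like CLOCK, by 0.99 (0.0021), each without overlap.

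Smaller rises were called for Cry2 (0.57), the casein kinase gene Csnk1e (0.38), the repressor Ciart (0.53), Per3 (0.46) and Arntl (0.35). The groups overlapped for Per3 and Arntl. Arntl was at 31.7, 30.8, 28.1 and 35.5 CPM under DRF and 27, 28.3, 22.4 and 20.8 CPM under NRF, and its call (adjusted p = 0.0285) was lost without DRF replicate 1, 2 or 4 or NRF replicate 3 or 4, with adjusted p between 0.0526 and 0.0836. Csnk1e, Per3 and Arntl did not pass per total reads, and Arntl, Per3 and Ciart did not with all 56 libraries. Differences of 0.10 for Clock, 0.26 for Per1, -0.05 for Rora, -0.04 for Csnk1d and -0.08 for Fbxl21 did not pass. Rora and Csnk1d passed per total reads, at -0.23 each.

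Of the 6 genes of the PAR bZIP and output list, 5 rose and none fell. Nfil3, the antagonist of the PAR bZIP activators at their shared sites, measured 55.9, 44.4, 54.3 and 58.3 CPM under DRF and 13.8, 11.7, 11 and 12.6 CPM under NRF, a difference of 2.03 ± 0.10 (SE, adjusted p = 4.46e-06). The activator Hlf measured 18.6, 21.9, 21.3 and 20.3 CPM under DRF and 4.74, 5.74, 5.5 and 4.58 CPM under NRF, a difference of 1.81 ± 0.10 (SE, adjusted p = 5.27e-06). Activator and antagonist were thus high in the same libraries. Usp2, a deubiquitinase under clock control, measured 39.3, 30.9, 39.3 and 29.1 CPM under DRF and 7.23, 4.77, 5.45 and 5.24 CPM under NRF, a difference of 2.42 ± 0.14 (SE, adjusted p = 6.38e-06). Tef differed by 1.21 (adjusted p = 3.41e-05) and Dbp by 0.91 (adjusted p = 0.00593), with 28.5, 21.6, 33.6 and 15.6 CPM under DRF and 10.2, 14.3, 11.9 and 12.7 CPM under NRF. The DRF level of Dbp in replicate 4 was close to the highest NRF level. Por, the electron donor of cytochromes P450, differed by 0.12 (adjusted p = 0.231) and did not pass in limma, although its groups did not overlap.

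The clock difference moved within the light phase. Between ZT4 and ZT8, at which the feeding windows are the same, 220 of 15978 genes (1.38%) had a different DRF minus NRF difference in limma, and 2607 had an unadjusted p under 0.05. This count depended on single libraries. It was between 76 and 131 without DRF ZT4 replicate 1, 3 or 4, DRF ZT8 replicate 2, NRF ZT4 replicate 1, 2 or 4, or NRF ZT8 replicate 1 or 4, and it was 412 and 343 without DRF ZT8 replicate 1 and 3, while 1003 genes were called with the spread of all 56 libraries. Of the core clock genes, 6 of 19 differed between the times, and 5 of 6 of the PAR bZIP and output list. Tef went from 1.21 at ZT4 to -0.73 at ZT8, a change of 1.94 ± 0.18 (SE, adjusted p = 0.000253). Dbp went from 0.91 to -1.60, a change of 2.51 ± 0.28 (SE, adjusted p = 0.000465). Bhlhe41 went from 1.89 to -0.87, a change of 2.76 ± 0.37 (SE, adjusted p = 0.00233).

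Hlf, 1.81 at ZT4, was at -0.04 at ZT8, a change of 1.86 ± 0.21 (SE, adjusted p = 0.000465). Arntl moved in the opposite sense, from 0.35 at ZT4 to 2.35 at ZT8 (adjusted p of the change = 0.000391). Npas2 went from -0.99 to 1.20 (adjusted p = 0.00972). Nr1d1, at -1.56 and -1.89, Nfil3, at 2.03 and 2.42, and Cry1, at 1.78 and 1.30, did not pass the test of a change. Outside the clock lists, genes called with a small adjusted p included C2cd2l, a lipid transfer protein (0.80 to -1.13), Myo5b, an unconventional myosin (-0.98 to 1.29), and Slc6a6, the taurine transporter (0.78 to -0.90). All 3 changed sign between the times.

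**Figure D2:**
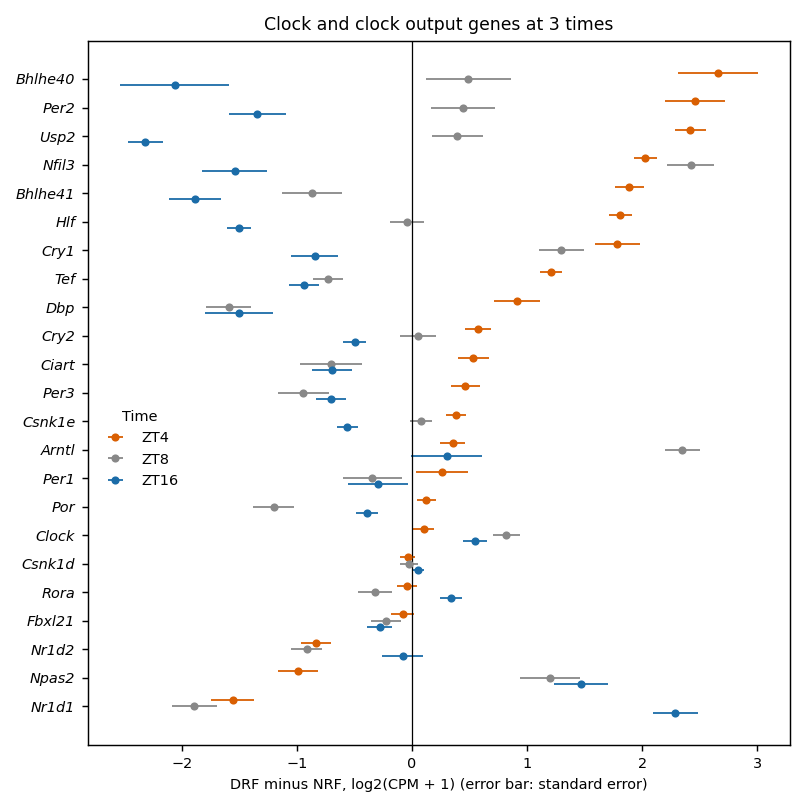
DRF minus NRF differences on the log2(CPM + 1) scale, with standard errors, of the core clock and PAR bZIP and output genes at ZT4 (orange), ZT8 (grey) and ZT16 (blue), from fits with 4 libraries per group. Tef, Dbp and Bhlhe41 are positive at ZT4 and negative at both later times, while Nr1d1 is negative at ZT4 and ZT8 and positive at ZT16.

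Genes of lipid synthesis were higher under DRF. Of 21 cholesterol biosynthesis genes, 19 were higher under DRF, 2 did not pass and none fell, with a median difference of 1.28. Over all genes 19.9% were higher and 18.7% lower. Mvd, the mevalonate diphosphate decarboxylase, measured 148, 135, 172 and 168 CPM under DRF and 43.5, 37.9, 10.1 and 15.1 CPM under NRF, a difference of 2.72 ± 0.38 (SE, adjusted p = 0.000595). Cyp51, lanosterol demethylase, measured 269, 219, 300 and 300 CPM under DRF and 87.7, 90.7, 31.7 and 40.8 CPM under NRF, a difference of 2.23 ± 0.30 (SE, adjusted p = 0.000535). Both genes were lowest in NRF replicate 3, next lowest in replicate 4, and had no overlap.

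The sterol reductase gene Tm7sf2, with the smallest adjusted p of the list, measured 53.1, 51.3, 64.2 and 64.2 CPM under DRF and 24.5, 17.5, 16.6 and 18.8 CPM under NRF, a difference of 1.55 ± 0.13 (SE, adjusted p = 4.19e-05). Fdft1, squalene synthase, differed by 1.26 (adjusted p = 0.000199), Ebp, the sterol isomerase, by 0.70 (adjusted p = 0.000183), and Hmgcs1, the cytosolic HMG-CoA synthase, by 1.07 (adjusted p = 0.00243). Of 17 genes of sterol sensing, uptake and efflux, 9 rose and none fell, against 19.9% and 18.7% of all genes. Per total reads 7 rose and 4 fell, against 1666 and 5272 over all genes. Insig1, which retains SREBPs in the endoplasmic reticulum, measured 1430, 1130, 1290 and 1290 CPM under DRF and 437, 173, 148 and 179 CPM under NRF, a difference of 2.59 ± 0.28 (SE, adjusted p = 0.000185). The sterol carrier Stard4 rose by 1.30, the phospholipid acyltransferase Lpcat3 by 0.94, the lipoprotein receptor Scarb1 by 0.65 and the cholesterol exporter Abca1 by 0.58, each without overlap. Srebf1, which encodes the SREBP of fatty acid synthesis, rose by 1.35 (adjusted p = 0.00319).

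Of 20 fatty acid synthesis genes, 15 rose, 5 did not pass and none fell, with a median of 1.38. Among all genes 19.9% rose and 18.7% fell. Without DRF replicate 3 or NRF replicate 4, 9 of the 20 passed. Acacb, acetyl-CoA carboxylase 2, measured 762, 586, 887 and 793 CPM under DRF and 332, 279, 143 and 166 CPM under NRF, a difference of 1.78 ± 0.25 (SE, adjusted p = 0.00065). Mid1ip1, an activator of acetyl-CoA carboxylase, measured 284, 282, 336 and 303 CPM under DRF and 78.8, 117, 29.3 and 41 CPM under NRF, a difference of 2.36 ± 0.34 (SE, adjusted p = 0.000784). Slc25a1, the mitochondrial citrate carrier, differed by 1.75 (adjusted p = 0.00511), Elovl1 by 0.55 (adjusted p = 0.00124) and Acsl1, an acyl-CoA synthetase, by 1.07 (adjusted p = 0.00223).

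The NRF libraries were far apart for the central lipogenic genes. Fasn, fatty acid synthase, measured 33200, 27700, 38100 and 32900 CPM under DRF and 20300, 25200, 3780 and 12900 CPM under NRF. NRF replicate 3 was far below replicate 2, and the difference of 1.39 (adjusted p = 0.137) did not pass although the groups did not overlap. Acly, ATP citrate lyase, measured 8420, 7120, 10000 and 9070 CPM under DRF and 4340, 9160, 356 and 1850 CPM under NRF. Here NRF replicate 2 lay within the DRF range, and the difference of 1.92 (adjusted p = 0.076) did not pass, but did without that library (2.60, adjusted p = 0.0143). Acss2, acetyl-CoA synthetase, behaved alike, with 1.24 (adjusted p = 0.0803) and, without NRF replicate 2, 1.64 (0.0211). Elovl6 differed by 1.88 (adjusted p = 0.0309), Scd2, a desaturase, by 2.14 (adjusted p = 0.0187) and Me1, malic enzyme, by 1.69 (adjusted p = 0.0377). The calls of all 3 were lost with no filter and on log2(deposited value + 1). The Elovl6 call was also lost without DRF replicate 1, 3 or 4 or NRF replicate 4, and that of Me1 without any 1 of the DRF libraries or NRF replicate 4.

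NRF replicates 3 and 4 were the lowest libraries in both synthesis lists. The mean log2(CPM + 1) of the 20 fatty acid synthesis genes was 8.62, 8.94, 7.04 and 7.91 in NRF replicates 1 to 4, and 9.56, 9.29, 9.73 and 9.49 under DRF. That of the 21 cholesterol biosynthesis genes was 5.60, 5.57, 4.51 and 4.94 under NRF and 6.45, 6.40, 6.63 and 6.64 under DRF. All DRF means exceeded all NRF means. Pck1 and Hcar2 were highest in NRF replicate 3, the lowest library of both lists. Scd1, whose reads could not be recovered, stood at 148 ± 1.43 under DRF and 136 ± 2.75 under NRF (SD, n = 4) on the rescaled deposited scale (exact permutation p = 0.0286), a scale on which a fold cannot be given.

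**Figure D3:**
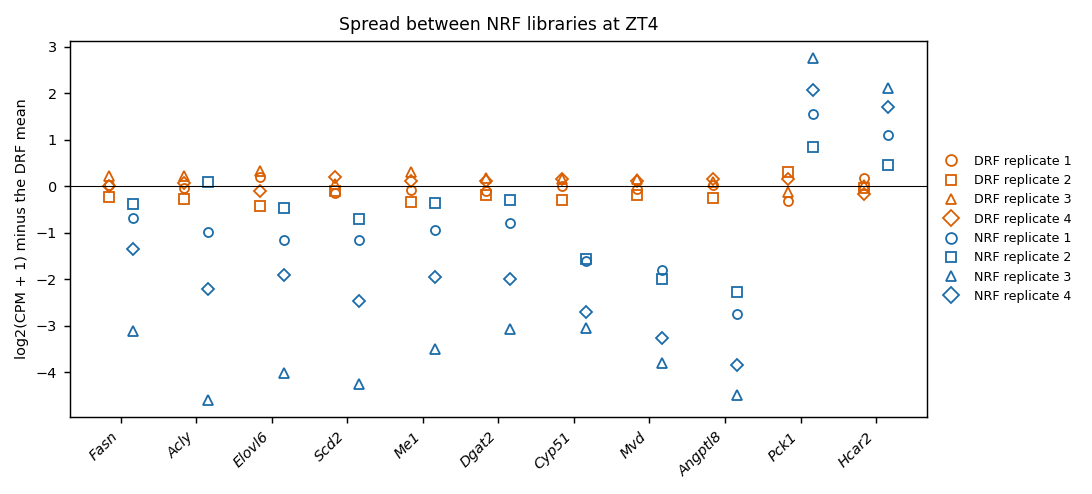
Level in each ZT4 library minus the DRF mean, on the log2(CPM + 1) scale, for genes of lipid synthesis and, at the right, of the fast, with DRF in orange, NRF in blue and a marker shape per replicate number. DRF libraries lie close to 0, while NRF libraries spread, replicate 3 (triangles) lying lowest for the synthesis genes and highest for Pck1 and Hcar2.

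In lists of sugar metabolism, rises outnumbered falls. Over all genes 19.9% rose and 18.7% fell, and per total reads 1666 genes rose and 5272 fell. Of 10 genes of the pentose phosphate pathway and NADPH supply, 6 rose and none fell (from 4 to 7 when single libraries were left out, and 4 per total reads). Rpia, ribose 5-phosphate isomerase, rose by 1.30 (adjusted p = 0.000201), Taldo1, transaldolase, by 0.81 (adjusted p = 0.00482), and G6pdx, the entry enzyme, by 0.70 (adjusted p = 0.00473). Pgd, the next dehydrogenase, differed by 1.00 (adjusted p = 0.0438), a call lost without any 1 of the DRF libraries or NRF replicate 4. Of 19 glycolysis genes, 14 rose and 1 fell (10 and 1 per total reads). Hk2, hexokinase 2, measured 338, 334, 374 and 364 CPM under DRF and 116, 117, 49.8 and 60.9 CPM under NRF, a difference of 2.12 ± 0.24 (SE, adjusted p = 0.000248), and Slc2a4, the insulin-responsive glucose transporter GLUT4, measured 499, 463, 536 and 566 CPM under DRF and 299, 415, 127 and 183 CPM under NRF, a difference of 1.15 ± 0.30 (SE, adjusted p = 0.0123). The member that fell was Slc2a1, the basal transporter GLUT1, with 7.19, 7.57, 8.26 and 5.96 CPM under DRF and 11, 11.7, 9.59 and 10.7 CPM under NRF and a difference of -0.51 ± 0.11 (SE, adjusted p = 0.00514). Its groups did not overlap, and the call was lost with all 56 libraries. Pgam1 and Pfkp rose by 0.93 and 0.99.

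Of 13 glycogen genes, 7 rose and none fell (5 rose per total reads), against 19.9% and 18.7% of all genes. Besides Ppp1r3b, the glycogen-targeting subunits Ppp1r3c and Ppp1r3d rose. Ppp1r3c measured 107, 88, 101 and 109 CPM under DRF and 25.7, 36, 26.1 and 23.7 CPM under NRF, a difference of 1.84 ± 0.12 (SE, adjusted p = 1.72e-05), and Ppp1r3d differed by 1.02 (adjusted p = 0.00166). Gys1, glycogen synthase, differed by 0.49 (adjusted p = 0.0145), a call not made per total reads. Pygl, glycogen phosphorylase, differed by 0.94 (adjusted p = 0.0342) with overlapping groups, and its call was lost without any of DRF replicates 1, 3 and 4 and NRF replicates 3 and 4.

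In triglyceride synthesis, 10 of 18 genes rose and 2 fell, against 19.9% and 18.7% of all genes. The larger of the falls was that of Pck1. Per total reads 8 rose and 4 fell, against 1666 and 5272 over all genes. Without DRF replicate 1 or 3, 1 gene of the list fell. Lpin1, a phosphatidate phosphatase, measured 781, 823, 899 and 840 CPM under DRF and 365, 353, 169 and 204 CPM under NRF, a difference of 1.69 ± 0.23 (SE, adjusted p = 0.000519). Mogat2, a monoacylglycerol acyltransferase, measured 46, 40.9, 66.6 and 72.3 CPM under DRF and 14, 24.9, 3.82 and 5.56 CPM under NRF, a difference of 2.41 ± 0.45 (SE, adjusted p = 0.00258). Neither overlapped. Dgat1 rose by 0.66 (adjusted p = 0.000794), Agpat1 by 0.62 (adjusted p = 0.000423) and Gpam, which adds the first acyl chain to glycerol 3-phosphate, by 0.80 (adjusted p = 0.00123). Dgat2 differed by 1.54 (adjusted p = 0.0342), a call lost without any 1 of the DRF libraries or without NRF replicate 3 or 4.

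Of 19 lipolysis genes, 6 rose and 3 fell, against 19.9% and 18.7% of all genes. Per total reads 5 rose and 6 fell, and the median of 0.14 became -0.05. Falls then outnumbered rises over all genes too, at 5272 against 1666. Adrb3, the adrenergic receptor of adipocytes, measured 166, 164, 157 and 165 CPM under DRF and 475, 368, 576 and 373 CPM under NRF, a difference of -1.43 ± 0.13 (SE, adjusted p = 9.67e-05). Hcar2, the antilipolytic receptor for ketone bodies and niacin, fell too, with 20.9, 18, 18.9 and 16.5 CPM under DRF and 40.5, 25.7, 82.6 and 62.8 CPM under NRF and a difference of -1.34 ± 0.28 (SE, adjusted p = 0.00494). G0s2, the inhibitor of adipose triglyceride lipase, rose without overlap by 0.87 (adjusted p = 0.000281) and Adora1, an inhibitory adenosine receptor, by 1.20 (adjusted p = 0.000287). The lipase gene Pnpla2 differed by 0.57 (adjusted p = 0.0488), a call lost without any one library other than NRF replicate 3. Lipe, hormone-sensitive lipase, differed by -0.27 (adjusted p = 0.105), which did not pass.

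Of 14 fatty acid uptake genes, 6 rose and 1 fell, against 19.9% and 18.7% of all genes. Per total reads 6 rose and 2 fell, against 1666 and 5272 over all genes. The inhibitors of lipoprotein lipase moved apart, Angptl8 upward and Angptl4, the fasting-induced one, downward. Angptl4 measured 141, 151, 147 and 182 CPM under DRF and 500, 240, 604 and 561 CPM under NRF, a difference of -1.54 ± 0.25 (SE, adjusted p = 0.00133). Lpl, lipoprotein lipase itself, measured 10800, 11300, 11400 and 11700 CPM under DRF and 9270, 7770, 7710 and 7830 CPM under NRF. All DRF libraries were above all NRF libraries, but the difference of 0.48 (adjusted p = 0.283) did not pass in limma with the intensity trend and passed without the intensity trend (adjusted p = 0.00288). Acsl3 rose by 1.93 (adjusted p = 3.41e-05) and Fabp5, a fatty acid binding protein, by 1.86 (adjusted p = 0.00189). Cd36, the fatty acid translocase, was at 0.03 and did not pass.

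Genes of fatty acid oxidation were more often higher than lower under DRF at ZT4. Of 32 genes of oxidation and ketogenesis, 21 rose and 3 fell (5 without NRF replicate 2), with a median of 0.47. Over all genes 19.9% rose and 18.7% fell. Per total reads 16 of the list rose and 4 fell, against 1666 and 5272 over all genes, with a list median of 0.28. At ZT8 none of the 32 was higher and 7 were lower, with a median of -0.19. This share of calls is near the 18.7% of all genes called at ZT8 in either direction. The test of a change passed for 2 of the 32, against 1.38% of all genes. The falls included Ppara, the nuclear receptor of the fasting response, with 3.58, 3.51, 3.81 and 4.11 CPM under DRF and 6.73, 7.42, 6.45 and 6.37 CPM under NRF and a difference of -0.70 ± 0.10 (SE, adjusted p = 0.000558). Its groups did not overlap. Cpt1a, a carnitine palmitoyltransferase, differed by -0.56 (adjusted p = 0.00695). Among the rises, Ucp3, a mitochondrial uncoupling protein, was at 1.56 (adjusted p = 0.000537), and Cpt2 at 0.58 (adjusted p = 0.000949). Acot1 and Acot2, near-identical thioesterase copies whose reads may be split between them, were at 1.60 (adjusted p = 0.000676) and 0.99 (adjusted p = 0.000199).

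The respiratory chain and ATP synthase list moved with small, even steps. Of 49 nuclear-encoded members, 39 rose and none fell, against 19.9% and 18.7% of all genes. Their median was 0.42, with no difference above 0.71. Ndufa10 of complex I measured 308, 286, 336 and 347 CPM under DRF and 220, 209, 200 and 198 CPM under NRF, a difference of 0.62 ± 0.09 (SE, adjusted p = 0.00059). Atp5g3 of the ATP synthase rose by 0.71 (adjusted p = 0.0015). Under leave-one-out the count was 28 to 42, and 26 passed per total reads. Of 31 proteasome genes, 15 rose and none fell, against the same shares of all genes, with a median of 0.24. This count is weaker, at 8 without DRF replicate 3 or 4, 9 without NRF replicate 4 and 5 per total reads. Psmb5, a catalytic subunit, rose by 0.53 (adjusted p = 0.0019).

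In lists related to growth, rises outnumbered falls. Over all genes 19.9% rose and 18.7% fell, and per total reads 1666 genes rose and 5272 fell. Of 40 ribosome biogenesis genes, 24 rose and 1 fell (13 and 5 per total reads). Bysl, needed for the small subunit, measured 41.7, 41, 48.9 and 48.1 CPM under DRF and 24.2, 23.9, 17.4 and 18.8 CPM under NRF, a difference of 1.07 ± 0.12 (SE, adjusted p = 0.000188), and the rRNA methyltransferase Nop2, the nucleolar Nolc1 and the small-subunit factor Tsr1 rose by 0.88, 0.86 and 0.84. Of 20 aminoacyl-tRNA synthetase genes, 10 rose and none fell, with 4 rises and 3 falls per total reads. Of 24 genes of the mTORC1 and ATF4 amino acid response, 10 rose and none fell, with a median of 0.27. Per total reads 7 of them rose and none fell, with a median of 0.10. Atf4 itself measured 192, 161, 194 and 194 CPM under DRF and 79.7, 69.2, 92.4 and 90.3 CPM under NRF, a difference of 1.16 ± 0.10 (SE, adjusted p = 7.84e-05). The amino acid transporter Slc1a4 rose by 1.22 (adjusted p = 0.000533), Psph, of serine synthesis, by 1.34 (adjusted p = 0.00311) and the stress-induced Nupr1 by 0.78 (adjusted p = 0.000492). Of 20 cytosolic heat shock genes, 16 rose and none fell, with a median of 0.57. Hsph1, a nucleotide exchange factor of HSP70, measured 130, 74.7, 117 and 157 CPM under DRF and 47, 25.2, 24.5 and 20.6 CPM under NRF, a difference of 2.01 ± 0.26 (SE, adjusted p = 0.000428). Dnajb4, Bag3 and Dnaja1 rose by 1.04, 1.03 and 1.14, and the constitutive HSP70 gene Hspa8 by 1.01. Cirbp, an RNA-binding protein that rises with cooling, went the other way, with 16.2, 22.2, 16.6 and 14.6 CPM under DRF and 42.7, 72.7, 41.3 and 60.1 CPM under NRF and a difference of -1.56 ± 0.18 (SE, adjusted p = 0.000266). Rbm3, also induced by cold, was at 0.05 and did not pass.

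Of 26 FOXO and fasting responsive genes, 6 rose and 10 fell, against 19.9% and 18.7% of all genes, with a median of -0.17. The share of rises is near that of all genes. Without NRF replicate 4, 3 rose and 10 fell, and without NRF replicate 3, 7 rose and 8 fell, with a median of -0.04. Per total reads, 3 rose and 13 fell, against 1666 and 5272 over all genes. Irs2, an insulin receptor substrate, measured 18.2, 23.2, 15.5 and 15.2 CPM under DRF and 62.2, 38.3, 84.7 and 67.2 CPM under NRF, a difference of -1.71 ± 0.21 (SE, adjusted p = 0.000359). Fbxo32 (atrogin-1), a ubiquitin ligase, fell by 1.08 and Sesn3, a sestrin, by 0.61. Gadd45a, a growth arrest gene, rose, with 43.5, 43.3, 43.9 and 49.6 CPM under DRF and 16.7, 13.7, 10.3 and 14.9 CPM under NRF and a difference of 1.64 ± 0.13 (SE, adjusted p = 3.32e-05). Trib1, a pseudokinase, rose by 0.90.

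The glucocorticoid responsive list had no common direction, with 3 of 22 genes higher, 4 lower and 15 not past the threshold. The shares are below the background of 19.9% higher and near that of 18.7% lower. Per total reads 2 were higher and 7 lower, against 1666 and 5272 over all genes. Tsc22d3 (GILZ) differed by 0.75 (adjusted p = 0.000394) and Zbtb16 (PLZF) by -1.56 (adjusted p = 0.00132), while Fkbp5 was at 0.39 (adjusted p = 0.162) and passed only without NRF replicate 1 (0.58, adjusted p = 0.0288). Hsd11b1, which regenerates active glucocorticoid, measured 107, 116, 110 and 207 CPM under DRF and 40.5, 40.4, 35.5 and 33.3 CPM under NRF, a difference of 1.77 ± 0.19 (SE, adjusted p = 0.000165). Its DRF replicate 4 stood above the others and the groups were apart without it too.

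Among 20 adipokine genes, 8 rose and 6 fell, against 19.9% and 18.7% of all genes. Per total reads 7 rose and 7 fell, against 1666 and 5272 over all genes. Lep, leptin, measured 1350, 1830, 1310 and 2150 CPM under DRF and 611, 348, 326 and 269 CPM under NRF, a difference of 2.13 ± 0.25 (SE, adjusted p = 0.00027). Fgf21 measured 5.36, 4.44, 5.21 and 3.55 CPM under DRF and 0.199, 0.341, 0.62 and 0.256 CPM under NRF, a difference of 2.06 ± 0.14 (SE, adjusted p = 1.72e-05). Apln, apelin, rose by 1.85 (adjusted p = 0.000173) and Nampt, of NAD synthesis, by 0.98 (adjusted p = 0.000183). Cfd, adipsin, measured 6730, 4980, 7360 and 4440 CPM under DRF and 10700, 13900, 18300 and 11000 CPM under NRF, a difference of -1.19 ± 0.37 (SE, adjusted p = 0.0265). The groups were apart, yet the Cfd call was lost without any 1 of the 4 DRF libraries, with adjusted p between 0.0512 and 0.0907. Adipoq, adiponectin, was at -0.18 and did not pass. Nnat, neuronatin, had 51.9, 89.6, 21.3 and 122 CPM under DRF and 370, 80.1, 512 and 491 CPM under NRF and a difference of -2.29 (adjusted p = 0.0159), with the NRF replicate 2 library inside the DRF range, and its call was lost with no filter and on log2(deposited value + 1).

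**Figure D4:**
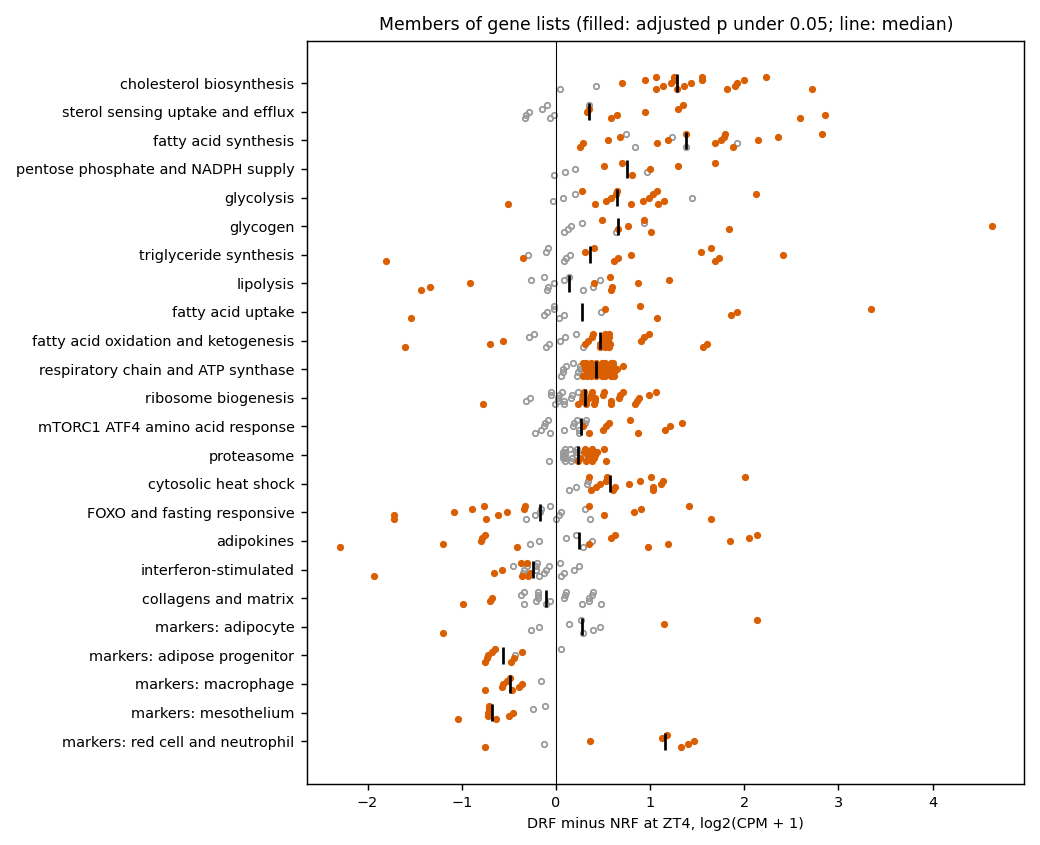
DRF minus NRF difference at ZT4 (horizontal, log2(CPM + 1) scale) of every tested member of 24 gene lists, filled where the adjusted p was under 0.05, with a line at the median of each list. Cholesterol biosynthesis and respiratory chain members lie on the positive side, and progenitor, macrophage and mesothelium markers almost all on the negative side.

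Several marker lists of cells other than adipocytes were lower under DRF, and those of red cells and neutrophils and of endothelium were not. Of 10 adipocyte markers, 2 rose and 1 fell, against 19.9% and 18.7% of all genes. Of 10 adipose progenitor markers, 8 fell, against 18.7% of all genes, with a median of -0.56. Their summed level was 1704 to 2087 CPM under DRF and 2346 to 3702 CPM under NRF. Pdgfra measured 82.9, 66.1, 71.6 and 58.3 CPM under DRF and 97.5, 114, 121 and 113 CPM under NRF, a difference of -0.67 ± 0.11 (SE, adjusted p = 0.00136), and Dcn, decorin, differed by -0.75 (adjusted p = 0.0109). Of 10 mesothelium markers, 8 fell, against the same 18.7%, summing to 325 to 511 CPM under DRF and 529 to 807 CPM under NRF. Gpm6a measured 26.4, 35.1, 35.2 and 35.8 CPM under DRF and 57.7, 87.1, 85 and 51.6 CPM under NRF, a difference of -1.04 ± 0.17 (SE, adjusted p = 0.00153), and Msln, mesothelin, differed by -0.73 (adjusted p = 0.00613).

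Of 9 macrophage markers, 8 fell, against 18.7% of all genes, but their sums overlapped (971 to 1197 CPM against 1090 to 1770 CPM). Between 1 (without DRF replicate 3) and 8 passed when single libraries were left out, with 2 without NRF replicate 3 or 4. Lymphocyte markers summed to 63.5 to 100 CPM under DRF and 167 to 225 CPM under NRF, most of it from the immunoglobulin gene Ighm (76.4, 89.1, 51.6 and 84.4 CPM under DRF and 156, 173, 178 and 211 CPM under NRF). Of 8 lymphocyte markers tested, 3 passed as lower, against 18.7% of all genes (from 1, without DRF replicate 1 or 3 or NRF replicate 2 or 4, to 5, without NRF replicate 1). Of 8 red cell and neutrophil markers, 6 were higher and 1 lower, against 19.9% and 18.7% of all genes. From 4 to 6 were higher when single libraries were left out. Per total reads 4 were higher and 1 lower, against 1666 and 5272 over all genes. The markers summed to 473 to 863 CPM under DRF and 178 to 492 CPM under NRF. The haemoglobin gene Hba-a1 measured 423, 512, 283 and 368 CPM under DRF and 104, 114, 272 and 171 CPM under NRF, a difference of 1.33 (adjusted p = 0.00487). Alas2, of erythroid haem synthesis, differed by 1.41 (adjusted p = 0.00269). Both genes named are of red cells, and the neutrophil members are not given singly. Of 24 interferon-stimulated genes, 8 fell and none rose, against 18.7% and 19.9% of all genes (3 fell with the spread of all 56 libraries). Apart from Ifi27l2a their falls were small, -0.66 for Irf7 and -0.31 for Oasl2. Of 21 collagen and matrix genes, 3 fell, a smaller share than the 18.7% of all genes (1 without DRF replicate 3 or NRF replicate 4, 5 without NRF replicate 2), among them Col3a1, at -0.68 (adjusted p = 0.0229), whose call was lost without DRF replicate 3 or 4 or NRF replicate 4. Without NRF replicate 4, 2 genes of this list rose, and its median of -0.11 became 0.11. Of 10 endothelial markers, 3 rose, against 19.9% of all genes (1 without DRF replicate 1 or 3, and 1 rose and 1 fell per total reads), summing to 1012 to 1312 CPM under DRF and 890 to 1118 CPM under NRF. The part of these marker changes in the other results was not tested.

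The comparison was repeated 12 h later, at ZT16, when the NRF mice were in their feeding window. Of 15846 genes, 4863 (30.7%) had a DRF minus NRF difference at ZT4 that differed from that at ZT16 in limma. Of 6062 genes called at ZT4 and tested in this fit, 3376 differed. Genes called at both times numbered 2055, which is 33.9% of the ZT4 calls and 49.6% of the ZT16 calls. Of these, 1183 (57.6%) had opposite signs, 718 being higher under DRF at ZT4 and 465 lower, and 872 had the same sign, 551 as higher and 321 as lower.

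The smallest adjusted p of this contrast belonged to Hlf, 1.81 at ZT4 and -1.51 at ZT16, a change of 3.32 ± 0.15 (SE, adjusted p = 8.02e-10), and to Usp2, 2.42 and -2.32, a change of 4.74 ± 0.21 (SE, adjusted p = 8.02e-10). They were followed by Rilpl2, an effector of small GTPases (1.82 and -1.36), Ankrd9 (1.59 and -1.59), the lipid kinase gene Pip4k2b (0.81 and -0.70), Smtnl2 (3.61 and -2.32), the activin receptor gene Acvr1c (-0.99 and 1.10) and the mitochondrial carrier gene Slc25a33 (1.46 and -1.04). All 8 reversed sign, and for several the sizes at the opposed times were nearly equal.

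Several leading ZT4 genes reversed too. Ppp1r3b went from 4.63 to -2.83, a change of 7.46 ± 0.67 (SE, adjusted p = 5.69e-07), Angptl8 from 3.34 to -1.96, and Pck1 from -1.81 to 2.38. For other leading genes no change passed the test. Podnl1 was at 3.43 and 3.28, a change of 0.14 ± 0.36 (SE, adjusted p = 0.799). Mogat2 was at 2.41 and 2.17, Hsd11b1 at 1.77 and 1.68, Plppr3 at -2.41 and -2.03 and Ifi27l2a at -1.93 and -1.85. For these 4 the test of a change gave adjusted p of 0.789, 0.85, 0.476 and 0.891, with standard errors of 0.58, 0.30, 0.37 and 0.36 of the change.

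Lists are read here against the 30.7% of all genes whose difference changed and the 26.4% called at ZT16 in either direction. The difference changed for 15 of 19 core clock genes, 6 of 6 of the PAR bZIP and output list, 25 of 40 ribosome biogenesis genes, 16 of 24 of the mTORC1 and ATF4 list, 14 of 20 heat shock genes, 13 of 18 triglyceride synthesis genes, 12 of 19 lipolysis genes, 18 of 32 genes of fatty acid oxidation and ketogenesis and 15 of 26 FOXO and fasting responsive genes. Ribosome biogenesis had a median of 0.31 at ZT4 and -0.25 at ZT16, where 21 of 40 were lower. The change passed for 10 of 21 cholesterol biosynthesis genes, whose median was 0.42 at ZT16, with 8 higher and 2 lower, and for 7 of 20 fatty acid synthesis genes, close to the share of all genes, whose ZT16 median was 0.61. It passed for 1 of 49 respiratory chain and 2 of 31 proteasome genes. These had ZT16 medians of 0.28 and 0.35, with 21 and 24 members higher under DRF there and none lower. At ZT8, where 18.7% of all genes were called, none of the 49 respiratory chain genes passed in either direction (median 0.14) and 11 of 31 proteasome genes were higher.

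**Figure D5:**
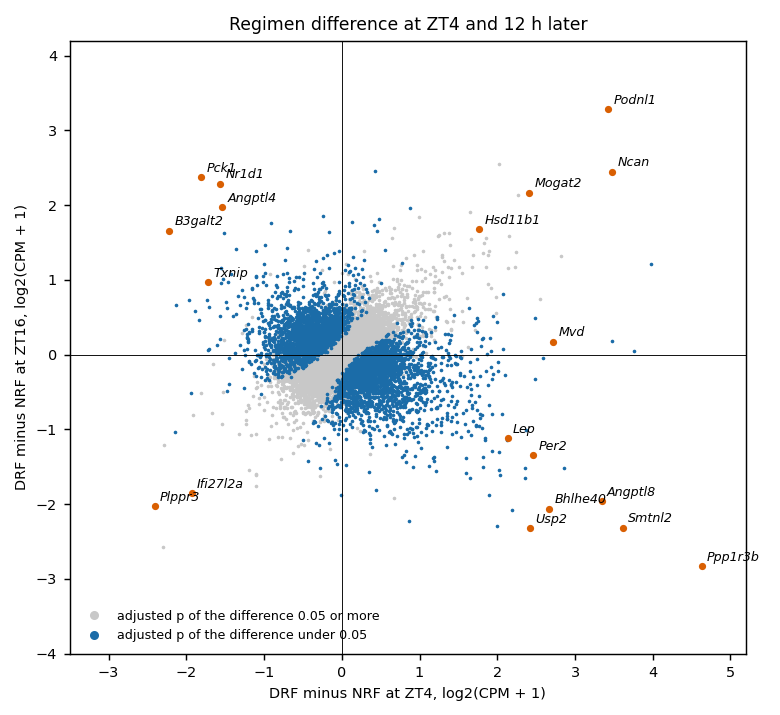
DRF minus NRF difference at ZT4 (horizontal) against that at ZT16 (vertical), both on the log2(CPM + 1) scale, for 15846 genes, in blue where the differences themselves differed (adjusted p under 0.05). Ppp1r3b, Smtnl2 and Usp2 lie at the lower right, Pck1 and Nr1d1 at the upper left, and Podnl1, Ncan and Mogat2 near the diagonal at the upper right.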

How the data were processed

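Poly(A) RNA of VAT was read with a kit that does not mark the strand, so that reads of overlapping or antisense genes cannot be told apart. The submitters' processing notes name HISAT2 2.0.5, featureCounts 1.5.0-p3 and the mm10 build. The deposited table of the authors is named TPM, but its values behave as a score: log2(CPM + 1) of a gene over its exon length, multiplied by a factor of the library. The factor was undone from the steps of the low values. Of 1262086 values at up to 10000 reads, 99.9998% came out as whole reads within 0.02. Gene length came from the annotation for 25021 of 25939 genes and from the values for 900. Scd1 and Pcx could not be resolved and were left out of the fits. CPM used the deposited effective library sizes. Depth limits the precision of low genes.

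Genes with a mean log2(CPM + 1) of at least 0.5 over the libraries of a fit were tested in limma 3.58.1 (R 4.3.3) with an intensity trend, on the 8 ZT4 libraries with the 2 group means, and on 16 libraries for the change of the difference against ZT16 or ZT8. P-values were adjusted over all genes tested. They measure the spread between these libraries, since the labels number replicates without naming animals. In simulated ZT4 counts, 93 of 100 genes changed by 1 on the log2 scale and 36 of 100 changed by 0.5 were called, with 4 false calls among 15540 genes. The simulation gave both groups the same dispersion of 0.02 and changed far fewer genes than the 38.6% called here. In the data the spread was larger under NRF for 68.4% of genes. The simulated rates therefore do not carry over to this comparison. Promoter sequences are from RefSeq (GRCm38.p6), and gene lengths and positions from the GENCODE annotation of the same build.

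The comparison and the gene lists were chosen with earlier results of these data known, so a list's count describes it and is not independent support. Genes named were the 10 largest rises and falls (official symbol, mean of at least 2, adjusted p under 0.05, no overlap), the clock lists whole, up to 6 of each other list by adjusted p plus members that define a pathway, and up to 8 per time contrast. Ncan, Mogat2, Hsd11b1, Plppr3 and Ifi27l2a were singled out beside ZT16 after their values were seen. Some genes taken by this rule are not reported here. Alternatives changed the libraries fitted, the filter, the pseudocount, the scaling, the scale of the values and the variance model, blocked on replicate number, and left out each library in turn.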

Additional observations from a re-analysis of the deposited data

Results flagged for a closer look

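Among the ZT4 levels of 154 genes in 2 groups, 13 of 308 groups (4.22%) held a library far from the other three, 10 under DRF and 3 under NRF, and chance alone gives about 1 in 20. The gap to the nearest library, as a share of the range of the group, is given for each. Under DRF it was 0.875 for Ciart and 0.930 for Gpm6a (replicate 1), 0.861 for Cry1, 0.880 for Cpt1a, 0.934 for Atf4 and 0.844 for Dnajb4 (replicate 2), 0.920 for Por (replicate 3), and 0.901 for Gadd45a, 0.879 for Hsd11b1 and 0.842 for Irf7 (replicate 4). Under NRF it was 0.919 for Lpl (replicate 1), 0.899 for Elovl3 (replicate 2) and 0.837 for Acot1 (replicate 3).

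The DRF minus NRF difference itself differed between times in limma for the following genes, given as the ZT4 minus the ZT16 difference on the log2 scale: 5.93 for Smtnl2, 4.74 for Usp2, 3.32 for Hlf, 3.18 for both Rilpl2 and Ankrd9, 2.51 for Slc25a33, 1.51 for Pip4k2b and -2.09 for Acvr1c. Against ZT8 the values were 2.76 for Bhlhe41, 2.51 for Dbp, 1.94 for Tef, 1.93 for C2cd2l, 1.86 for Hlf, 1.68 for Slc6a6 and -2.27 for Myo5b.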

How the results depend on the processing

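Of 136 named genes called at ZT4, 119 kept their call under every alternative run and none reversed, while 9 lost it when some single library was left out. With no filter 11 lost it (Arntl, Cfd, Col3a1, Dgat2, Elovl6, Me1, Nnat, Pgd, Pnpla2, Pygl and Scd2), with CPM per total reads 8 (Arntl, Csnk1e, Gys1, Me1, Per3, Pgd, Pnpla2 and Pygl), on log2(deposited value + 1) 8 (Col3a1, Dgat2, Elovl6, Me1, Nnat, Pgd, Pygl and Scd2) and with all 56 libraries 5 (Arntl, Ciart, Oasl2, Per3 and Slc2a1). Of the 18 named genes not called at ZT4, 12 were called under some alternative. The counts of 3130 higher and 2950 lower genes became 1666 and 5272 with CPM per total reads. They ranged from 2269 to 3101 higher and from 2010 to 3015 lower when single libraries were left out, and log2(deposited value + 1) gave 3453 and 2120. The number of genes whose difference changed against ZT8, 220, became 1003 with all 56 libraries fitted and ranged from 76 to 412 when single libraries were left out, and that against ZT16, 4863, became 3817 and ranged from 4202 to 4869. The cause of these shifts was not tested.

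The replicate numbers did not pair the libraries: deviations from the group means correlated at 0.00086, -0.18, -0.04 and -0.28 between same-numbered DRF and NRF libraries. With the replicate block, 2407 genes were higher and 2331 lower, 4716 changed against ZT16 and 191 against ZT8, and 7 named genes lost their call.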

Other observations

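Further lists had small medians. Of 27 genes of ER chaperones and the unfolded protein response, 7 were higher and 1 lower under DRF, with a median of 0.15, but with CPM per total reads 1 was higher and 5 lower (-0.04), and 3 were higher without DRF replicate 3 or 4 or NRF replicate 2 or 4. Of 28 autophagy and lysosome genes, 10 were higher and 1 lower (median 0.11), 6 were higher without DRF replicate 3, and per total reads 4 were higher and 6 lower (-0.07). Of 14 thermogenic genes 5 were higher and 3 lower (0.16), and per total reads 3 and 3 (-0.01). Of 15 adipogenic regulators 4 were higher and 2 lower (2 and 5 per total reads, and 2 higher without DRF replicate 3 or 4). Of 25 immediate early genes 2 were higher and 3 lower, against 1 and 5 per total reads, 1 and 7 without NRF replicate 1 and 4 and 1 without NRF replicate 4. Over all genes 19.9% were higher and 18.7% lower, and per total reads 1666 genes were higher and 5272 lower.

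Pcx, pyruvate carboxylase, whose reads could not be recovered, stood at 117 ± 1.46 under DRF and 107 ± 3.90 under NRF (SD, n = 4) on the rescaled deposited scale, with an exact two-sided permutation p of 0.0286, the smallest that the design allows. All 4 DRF values were above all 4 NRF values.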
